A study of Mus musculus with 12 samples.

Results

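The genes that handle ATP and adenosine outside the cell were followed through mouse neutrophils cultured with and without granulocyte colony-stimulating factor (G-CSF). The 10 genes are Nt5e, Entpd1, Entpd3, Adora2a, Adora2b, Ada, Adk, P2rx4, P2rx1 and P2ry2, out of 13935 rows in the deposited table, and each of the 10 had a row. They were chosen by name, with earlier results of these data known and the response of Nt5e in view. The counts of Nt5e moved in opposite directions in the genotypes, so its G-CSF values are given as a description with no test. RNA was sequenced from 12 libraries of femoral bone marrow cells sorted for CD45, CD11b and Ly6G, which mark neutrophils.

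The 4 groups held 3 libraries each. The first group carried LysMcre and was given 10 ng/ml mouse recombinant G-CSF for 8 h, and the second was Socs3fl/fl with the same G-CSF exposure. The third was LysMcre Socs3fl/fl kept for 8 h without G-CSF, and the fourth Socs3fl/fl without G-CSF. In all groups Socs3, a feedback inhibitor of cytokine signalling, is flanked by loxP sites per the genotype labels, and LysMcre is a Cre recombinase driven from the lysozyme 2 (Lyz2) locus in myeloid cells. The titles of the first group leave out Socs3fl/fl and read both G-CSF and untreated, so those 3 libraries were placed by their descriptions, which name a knockout and G-CSF. The labels do not say if the 3 libraries of a group are from different mice, and the p-values thus rest on a spread between libraries that could be technical.

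Counts of Socs3, the targeted gene, were not lower in the LysMcre libraries. Socs3 averaged 37335 ± 1219 normalized counts in LysMcre libraries and 19504 ± 1635 in Socs3fl/fl libraries with G-CSF (SD, n = 3 each; log2 difference 0.94, limma adjusted p = 1.06e-06). Without G-CSF the log2 difference was 0.38 (limma adjusted p = 0.329), and it passed (adjusted p = 0.0445) without LysMcre untreated replicate 3. A count per gene cannot tell a full transcript from one without the floxed part. Lyz2 did separate the genotypes, with log2 differences of -6.35 with and -5.20 without G-CSF (limma adjusted p = 1.77e-16 and 3.10e-15). The groups are therefore called the LysMcre-labelled and the floxed libraries. Reads counted in the rows of the deposited table, as recovered from the normalized values, numbered 19495754 to 26472118 per library. In the annotation used, no exon of a member overlaps an exon of another gene.

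Cells release ATP when stressed or activated, and it acts on ionotropic P2X and G protein-coupled P2Y receptors. Ectonucleotidases on the cell surface remove it: the products of Entpd1 (CD39) and Entpd3 cut ATP and ADP to AMP, and the product of Nt5e (CD73) cuts AMP to adenosine. Adenosine acts on its own receptors, of which those encoded by Adora2a and Adora2b raise cyclic AMP, and it is removed by deamination (Ada) or by phosphorylation inside the cell (Adk). In neutrophils, ATP released at the front of the cell is known to guide migration, and adenosine is known to restrain the oxidative burst.

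G-CSF was followed by higher counts of both Entpd genes, Adora2b, P2rx4 and P2ry2 in each genotype, and each of these 5 responses was larger in the LysMcre-labelled libraries. Entpd3 had the widest range, with 22425 ± 2697 and 7763 ± 544 normalized counts with G-CSF in the LysMcre-labelled and floxed libraries, against 66.0 ± 15.8 and 54.0 ± 9.63 without it (SD, n = 3 each). Nt5e was at 4795 ± 1115 normalized counts in LysMcre-labelled and 1155 ± 19.5 in floxed libraries with G-CSF, on either side of the untreated means of 2475 ± 170 and 2458 ± 147 (SD, n = 3 each). P2rx1 fell with G-CSF in both genotypes. Without G-CSF no member differed between the genotypes by the test used.

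The stretches before the transcription starts of the members whose counts were higher with G-CSF in both genotypes are shown because those members moved together. That of Ada is shown too, whose counts passed as higher with G-CSF in floxed libraries only. The difference between the responses of Ada did not pass (adjusted p = 0.0819 in limma). They are 250 bases upstream of the RefSeq start on GRCm38.p6 (mm10), read 5′ to 3′ on the strand of the gene. RefSeq windows matched 9 members in 12 windows; Adora2a is named only, and a window that overlaps an annotated exon, as that of Nt5e does over its whole length, is not shown. The windows lie at chr19:40659520-40659769 (plus strand) for Entpd1, chr9:120539568-120539817 (plus) for Entpd3, chr11:62248734-62248983 (plus) for Adora2b, chr5:122707294-122707543 (plus) for P2rx4, chr7:101012054-101012303 (minus) for P2ry2 and chr2:163750240-163750489 (minus) for Ada. Capitals mark the motif matches found.
Entpd1: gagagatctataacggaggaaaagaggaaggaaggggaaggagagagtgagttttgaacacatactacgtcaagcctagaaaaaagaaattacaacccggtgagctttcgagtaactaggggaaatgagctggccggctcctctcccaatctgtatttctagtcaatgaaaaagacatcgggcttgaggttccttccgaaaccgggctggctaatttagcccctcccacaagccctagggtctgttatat
Entpd3: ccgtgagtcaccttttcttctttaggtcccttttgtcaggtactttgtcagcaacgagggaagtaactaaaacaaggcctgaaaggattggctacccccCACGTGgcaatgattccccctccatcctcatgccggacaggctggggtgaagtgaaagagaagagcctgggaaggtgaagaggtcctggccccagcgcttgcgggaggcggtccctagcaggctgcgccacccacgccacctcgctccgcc
Adora2b: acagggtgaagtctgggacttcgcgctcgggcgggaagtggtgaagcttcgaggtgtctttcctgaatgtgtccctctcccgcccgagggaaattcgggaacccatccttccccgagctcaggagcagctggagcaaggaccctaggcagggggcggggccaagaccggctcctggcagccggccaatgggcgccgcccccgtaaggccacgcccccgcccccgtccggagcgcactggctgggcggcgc
P2rx4: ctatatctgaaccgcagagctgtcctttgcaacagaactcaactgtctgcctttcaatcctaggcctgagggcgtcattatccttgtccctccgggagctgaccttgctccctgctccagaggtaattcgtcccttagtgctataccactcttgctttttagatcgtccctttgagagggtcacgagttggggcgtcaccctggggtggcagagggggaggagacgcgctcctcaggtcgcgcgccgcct
P2ry2: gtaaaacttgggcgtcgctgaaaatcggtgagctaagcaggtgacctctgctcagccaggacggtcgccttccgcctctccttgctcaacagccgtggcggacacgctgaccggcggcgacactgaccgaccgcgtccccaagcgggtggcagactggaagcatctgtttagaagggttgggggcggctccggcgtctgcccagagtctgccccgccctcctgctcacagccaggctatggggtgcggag
Ada: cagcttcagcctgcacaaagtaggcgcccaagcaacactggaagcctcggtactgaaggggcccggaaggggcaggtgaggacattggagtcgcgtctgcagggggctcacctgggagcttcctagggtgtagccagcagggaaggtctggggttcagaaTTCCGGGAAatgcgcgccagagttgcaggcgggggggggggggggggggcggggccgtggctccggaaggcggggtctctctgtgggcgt
The 3 motifs were searched on both strands of all 12 windows. The first was TTCNNNGAA, a form that STAT factors are known to bind, which is present in 7.015% of 32817 RefSeq windows of the same length. It was found once, 90 bases before the start of Ada. The core of the hypoxia response element, ACGTG, is present in 16.574% of all windows. It was found in Entpd3, 151 and 150 bases before the start, and in another P2ry2 window that overlaps an exon and is not shown, 18 and 17 bases before the start. In both genes the forward and reverse matches overlap as one CACGTG. The cyclic AMP response element TGACGTCA is present in 1.548% of all windows and was found in none of the 12. A match describes letters and is neither a bound site nor a cause of the counts.

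Nt5e (ENSMUSG00000032420.8; mm10 chromosome 9, 88327197 to 88372092, plus strand) encodes the last enzyme in the making of extracellular adenosine. It had 4031, 4279 and 6074 normalized counts in LysMcre-labelled libraries with G-CSF, against 2280.0, 2593 and 2550.5 in the LysMcre-labelled untreated libraries. All 3 libraries with G-CSF lay above all 3 without it. The floxed libraries with G-CSF had 1173, 1157 and 1135 normalized counts, against 2457, 2313 and 2606 in the floxed untreated libraries. There the libraries with G-CSF all lay below the untreated ones. Nt5e was thus 1.91-fold higher with G-CSF in the LysMcre-labelled libraries and 2.13-fold lower in the floxed ones, and 4.08-fold higher in LysMcre-labelled than in floxed libraries with G-CSF, with no test because these values chose the gene. Replicate 3 is the highest of LysMcre-labelled libraries with G-CSF. Without it, the difference between genotypes with G-CSF was 1.85 on the log2 scale, against 2.03 with all libraries. Without G-CSF, a comparison the choice did not use, the log2 difference of Nt5e between LysMcre-labelled and floxed libraries was 0.01 (SE 0.11, adjusted p = 1 in limma).

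**Figure D1:**
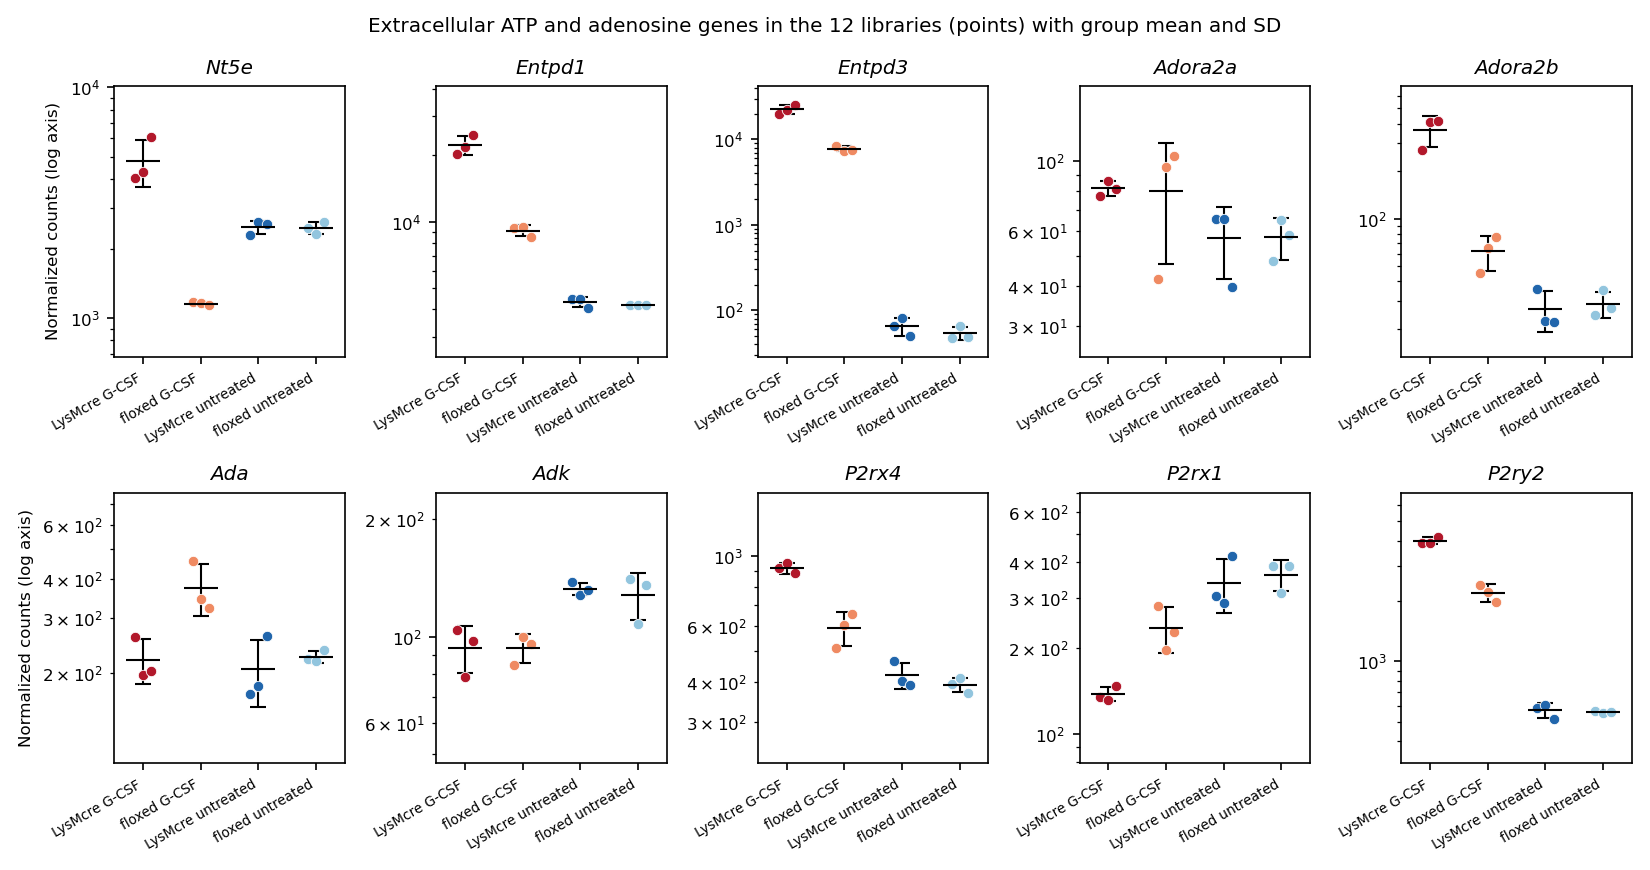
Normalized counts (log axis, a separate scale for each gene) of the 10 genes in every library, with the mean and SD of each group of 3. Nt5e in LysMcre-labelled libraries with G-CSF lies between 4031 and 6074, above every untreated library, and in the floxed libraries with G-CSF between 1135 and 1173, below every untreated library.

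Entpd1 (ENSMUSG00000048120.16; chromosome 19, 40612366 to 40741602, plus strand) encodes CD39, which takes the first step from ATP towards AMP. Its counts were 20234, 21775 and 24699.5 in LysMcre-labelled libraries with G-CSF and 9343, 9442 and 8505 in floxed libraries with G-CSF. Untreated, they were 4445, 4453 and 4079 in LysMcre-labelled libraries and 4200.3, 4169 and 4203 in floxed libraries. The libraries with G-CSF did not overlap the untreated ones in either genotype, nor did the genotypes overlap with G-CSF. Entpd1 was 5.13-fold higher with G-CSF in LysMcre-labelled libraries (log2 2.36, SE 0.07, adjusted p = 1.92e-13 in limma) and 2.17-fold higher in floxed libraries (log2 1.12, SE 0.07, adjusted p = 2.83e-09 in limma). The response was larger by 1.24 on the log2 scale in the LysMcre-labelled libraries (SE 0.10, adjusted p = 5.45e-07 in limma).

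Entpd3 (ENSMUSG00000041608.8; chromosome 9, 120539818 to 120568327, plus strand) encodes another surface enzyme with the same substrates. It had 19858, 22183 and 25235 normalized counts in LysMcre-labelled libraries with G-CSF and 8375, 7336 and 7578 in floxed libraries with G-CSF. Untreated libraries had 66.3, 81.7 and 50.1 normalized counts with the LysMcre label and 48.0, 65.1 and 48.9 without it. The untreated values rest on 45 to 95 reads, well above 3 reads, and they overlap between genotypes. Entpd3 was 339-fold higher with G-CSF in LysMcre-labelled libraries (log2 8.41, SE 0.15, adjusted p = 1.35e-15 in limma) and 142-fold higher in floxed libraries (log2 7.15, SE 0.15, adjusted p = 1.80e-14 in limma). These folds are on the log2(value + 1) scale, which understates the change of genes that are low in one group. The response was larger by 1.25 in the LysMcre-labelled libraries (SE 0.21, adjusted p = 0.000513 in limma), and with G-CSF the gene stood 2.88-fold above the floxed level there (log2 1.53, SE 0.15, adjusted p = 1.35e-06 in limma).

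Per length, Entpd3 lay above Entpd1 with G-CSF and far below it without. Normalized counts per kb of merged exons gave an Entpd3 to Entpd1 ratio of 1.46 to 1.52 in LysMcre-labelled libraries with G-CSF and 1.15 to 1.33 in floxed libraries with G-CSF, against 0.0183 to 0.0272 and 0.0170 to 0.0232 in the LysMcre-labelled and floxed untreated libraries. The Nt5e to Entpd1 ratio per kb was 0.127 to 0.160 in LysMcre-labelled and 0.0795 to 0.0865 in floxed libraries with G-CSF, against 0.333 to 0.406 and 0.360 to 0.402 untreated. In both genotypes the Nt5e to Entpd1 ratio was therefore lower with G-CSF than without, although the Nt5e counts themselves lay on opposite sides of the untreated level. These ratios are a description with no test, and they depend on the merged lengths, 3755 bases for Entpd3 and 5580 for Entpd1. Not divided by length, Entpd3 and Entpd1 averaged 22425 and 22236 normalized counts in LysMcre-labelled libraries with G-CSF. In floxed libraries with G-CSF they averaged 7763 and 9096.

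Of the 2 adenosine receptor genes among the members, Adora2b (ENSMUSG00000018500.2; chromosome 11, 62248984 to 62266453, plus strand) responded. Adora3, which is not a member, also rose and is described below. It had 274, 409 and 417 normalized counts in LysMcre-labelled libraries with G-CSF and 45.5, 64.8 and 76.3 in floxed libraries with G-CSF. Untreated, the counts were 35.8, 22.3 and 22.3 in LysMcre-labelled libraries and 24.5, 35.1 and 27.3 in floxed libraries. Each group with G-CSF lay wholly above its untreated group. With G-CSF the LysMcre-labelled libraries lay wholly above the floxed ones, while the untreated genotypes overlapped. With G-CSF, Adora2b was 5.84-fold higher in LysMcre-labelled than in floxed libraries (log2 2.55, SE 0.24, adjusted p = 1.02e-06 in limma). The G-CSF response was 13.3-fold in LysMcre-labelled libraries (log2 3.73, SE 0.24, adjusted p = 2.28e-09 in limma) and 2.09-fold in floxed libraries (log2 1.06, SE 0.24, adjusted p = 0.00194 in limma), a difference of 2.67 (SE 0.34, adjusted p = 4.95e-05 in limma).

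Adora2a (ENSMUSG00000020178.6; chromosome 10, 75316877 to 75334784, plus strand), the other receptor of the pair, passed in no comparison. Its counts were 77.4, 86.1 and 81.6 in LysMcre-labelled and 42.2, 95.4 and 104 in floxed libraries with G-CSF, against 65.2, 65.3 and 39.9 in LysMcre-labelled and 48.0, 65.1 and 58.3 in floxed untreated libraries. Floxed G-CSF replicate 1 was the lowest of its group by a wide margin. With all libraries the log2 difference with G-CSF was 0.55 in LysMcre-labelled (limma adjusted p = 0.107) and 0.39 in floxed libraries (limma adjusted p = 0.280). Without that library these were 0.55 (limma adjusted p = 0.0227) and 0.80 (limma adjusted p = 0.0071), so 1 library decided both calls. Per kb, the Adora2b to Adora2a ratio was 5.87 to 8.47 in LysMcre-labelled and 1.13 to 1.79 in floxed libraries with G-CSF, and 0.568 to 0.926 in LysMcre-labelled and 0.776 to 0.895 in floxed untreated libraries.

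**Figure D2:**
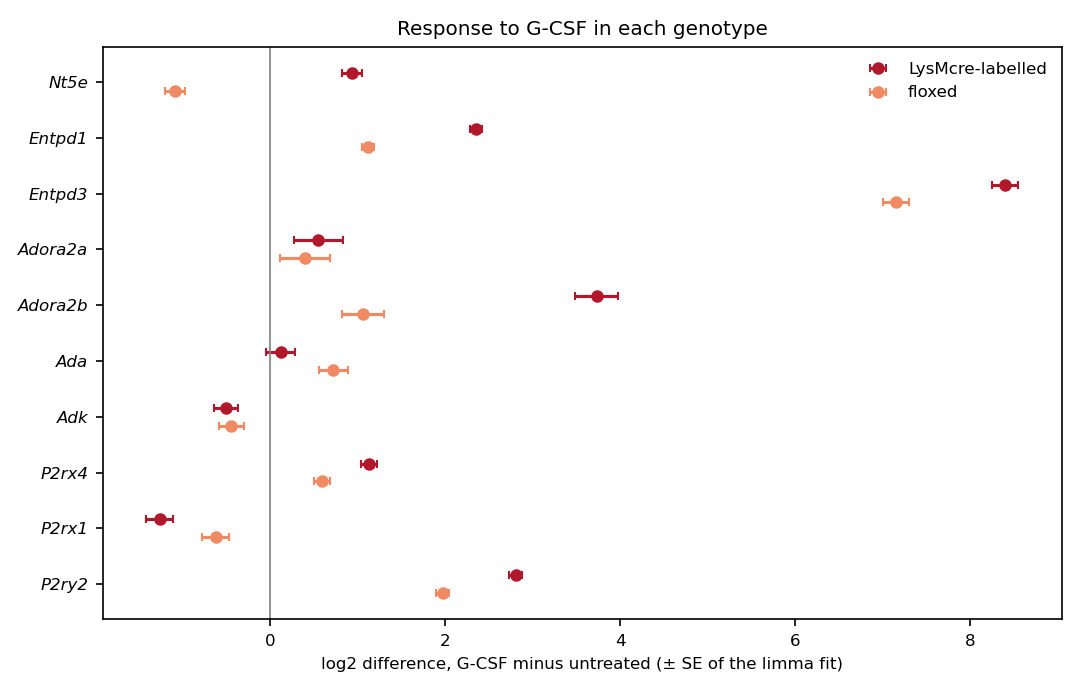
Log2 difference between libraries with G-CSF and untreated libraries, with the SE of the limma fit, for the LysMcre-labelled (upper point of each gene) and floxed libraries (lower point). Nt5e lies at 0.93 in LysMcre-labelled and -1.09 in floxed libraries, on opposite sides of 0, while Entpd3 lies at 8.41 and 7.15.

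The enzymes that remove adenosine did not move together. Ada (ENSMUSG00000017697.3; chromosome 2, 163726584 to 163750239, minus strand), adenosine deaminase, had 261, 196 and 203 normalized counts in LysMcre-labelled and 457, 346 and 323 in floxed libraries with G-CSF. The untreated libraries had 170.4, 181 and 263 normalized counts with the LysMcre label and 221, 218 and 237 without it. Only the floxed libraries with G-CSF stood apart from the other 3 groups, which overlap. Ada was 1.65-fold higher with G-CSF in floxed libraries (log2 0.72, SE 0.17, adjusted p = 0.00195 in limma), while in LysMcre-labelled libraries the log2 difference was 0.12 (SE 0.17, adjusted p = 0.563 in limma). With G-CSF it was 1.70-fold lower in LysMcre-labelled than in floxed libraries (log2 -0.76, SE 0.17, adjusted p = 0.00192 in limma). The difference between the responses, -0.60, did not pass (SE 0.23, adjusted p = 0.0819 in limma; 0.0196 to 0.191 over the alternatives). It passed with libraries scaled to equal totals, in DESeq2, and without replicate 1 of either the LysMcre-labelled G-CSF (adjusted p = 0.0366) or the LysMcre-labelled untreated libraries (adjusted p = 0.0461).

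Adk (ENSMUSG00000039197.10; chromosome 14, 21052574 to 21448569, plus strand), adenosine kinase, had 104, 79.0 and 97.7 normalized counts in LysMcre-labelled and 84.5, 99.8 and 96.0 in floxed libraries with G-CSF. Untreated libraries had 138, 128 and 132 with the LysMcre label and 141, 108 and 136 without it. Libraries with G-CSF lay below the untreated ones in both genotypes. The fall was 0.51 on the log2 scale in LysMcre-labelled libraries (SE 0.14, adjusted p = 0.00535 in limma) and 0.44 in floxed libraries (SE 0.14, adjusted p = 0.0161 in limma). The call in floxed libraries was lost without floxed G-CSF replicate 1 (adjusted p = 0.0617) and without floxed untreated replicate 1 (0.0711) or 3 (0.0568). Per kb, Ada exceeded Adk 8.85 to 10.7 times in LysMcre-labelled and 14.3 to 23.0 times in floxed libraries with G-CSF, and 5.27 to 8.49 times in LysMcre-labelled and 6.68 to 8.59 times in floxed untreated libraries.

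P2ry2 (ENSMUSG00000032860.5; chromosome 7, 100996568 to 101012866, minus strand) encodes a receptor for ATP and UTP that is known to take part in neutrophil chemotaxis. It had 3909.9, 3904 and 4174 normalized counts in LysMcre-labelled and 2411, 2224 and 1969.7 in floxed libraries with G-CSF. Untreated, it had 585, 609 and 519 in LysMcre-labelled and 563, 554 and 559 in floxed libraries. The libraries with G-CSF lay in 2 separate bands above the untreated ones, which overlap. The response was 7.00-fold in LysMcre-labelled (log2 2.81, SE 0.08, adjusted p = 7.26e-14 in limma) and 3.92-fold in floxed libraries (log2 1.97, SE 0.08, adjusted p = 1.05e-11 in limma), a difference of 0.84 (SE 0.11, adjusted p = 4.31e-05 in limma).

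P2rx4 and P2rx1 encode ATP-gated cation channels, and their counts went in opposite directions. P2rx4 (ENSMUSG00000029470.15; chromosome 5, 122707544 to 122729738, plus strand) had 914, 953 and 881 normalized counts in LysMcre-labelled and 512, 608 and 655 in floxed libraries with G-CSF, against 466, 402 and 393 in LysMcre-labelled and 393, 411 and 369.9 in floxed untreated libraries. It was 2.18-fold higher with G-CSF in LysMcre-labelled (log2 1.13, SE 0.09, adjusted p = 3.51e-08 in limma) and 1.50-fold higher in floxed libraries (log2 0.59, SE 0.09, adjusted p = 7.12e-05 in limma). No library with G-CSF overlapped the untreated ones. The difference between the responses was 0.54 (SE 0.13, adjusted p = 0.00768 in limma), and 0.37 with an adjusted p of 0.102 when libraries were scaled to equal totals.

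P2rx1 (ENSMUSG00000020787.14; chromosome 11, 72999103 to 73015200, plus strand) had 135, 132 and 147 normalized counts in LysMcre-labelled and 282, 197 and 227 in floxed libraries with G-CSF, against 304, 289 and 421 in LysMcre-labelled and 387, 311 and 387 in floxed untreated libraries. Every library with G-CSF lay below every untreated library. It fell by 1.26 on the log2 scale in LysMcre-labelled libraries (SE 0.15, adjusted p = 2.69e-06 in limma) and by 0.63 in floxed libraries (SE 0.15, adjusted p = 0.00287 in limma). The difference between the responses, -0.64 (SE 0.21, adjusted p = 0.0448 in limma), lost its call in 9 of 21 alternatives (adjusted p 0.00815 to 0.111 over all of them). Those 9 were quantile normalization and leaving out LysMcre-labelled G-CSF replicate 1, 2 or 3, floxed G-CSF replicate 1 or 3, LysMcre-labelled untreated replicate 3, or floxed untreated replicate 1 or 2. Per kb, the P2rx4 to P2rx1 ratio was 2.24 to 2.70 in LysMcre-labelled and 0.680 to 1.15 in floxed libraries with G-CSF, and 0.349 to 0.573 in LysMcre-labelled and 0.357 to 0.494 in floxed untreated libraries.

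Levels were compared between the genes per kb of merged exons. That length takes in every annotated exon of a gene, used or not, so the order depends on it. It is 7025 bases for P2rx4 and 2625 for P2rx1, and 8526 for Adk and 2002 for Ada. Not divided by length, untreated P2rx4 averaged more than P2rx1, at 420 against 338 in LysMcre-labelled and 391 against 362 in floxed libraries. Untreated, Entpd1 was the highest of the 10, at 775 normalized counts per kb in LysMcre-labelled and 751 in floxed libraries, followed by Nt5e at 288 and 286. P2ry2, P2rx1, Ada and P2rx4 came next, at 59.8 to 145 in LysMcre-labelled and 55.7 to 142 in floxed libraries. P2ry2 and P2rx1 overlapped over libraries, as did P2rx1 and Ada. In floxed libraries P2rx1 and Ada only just met, with the lowest P2rx1 value at 118.46 and the highest Ada value at 118.462. Adora2a, Entpd3, Adk and Adora2b closed the order, at 14.5 to 18.6 and 14.4 to 18.7, with ranges that overlap. With G-CSF, Entpd3 led at 5972 in LysMcre-labelled and 2067 in floxed libraries, followed by Entpd1 at 3985 and 1630.2 and P2ry2 at 1018 and 561. The fourth place was Nt5e in LysMcre-labelled libraries (557, range 469 to 706) and Ada in floxed libraries (187, range 161 to 228). Adora2b came next after Nt5e in LysMcre-labelled libraries, at 199, and stood at 33.7 in floxed libraries, where its range overlapped that of Adora2a. Adk was last in both, at 11.0.

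**Figure D3:**
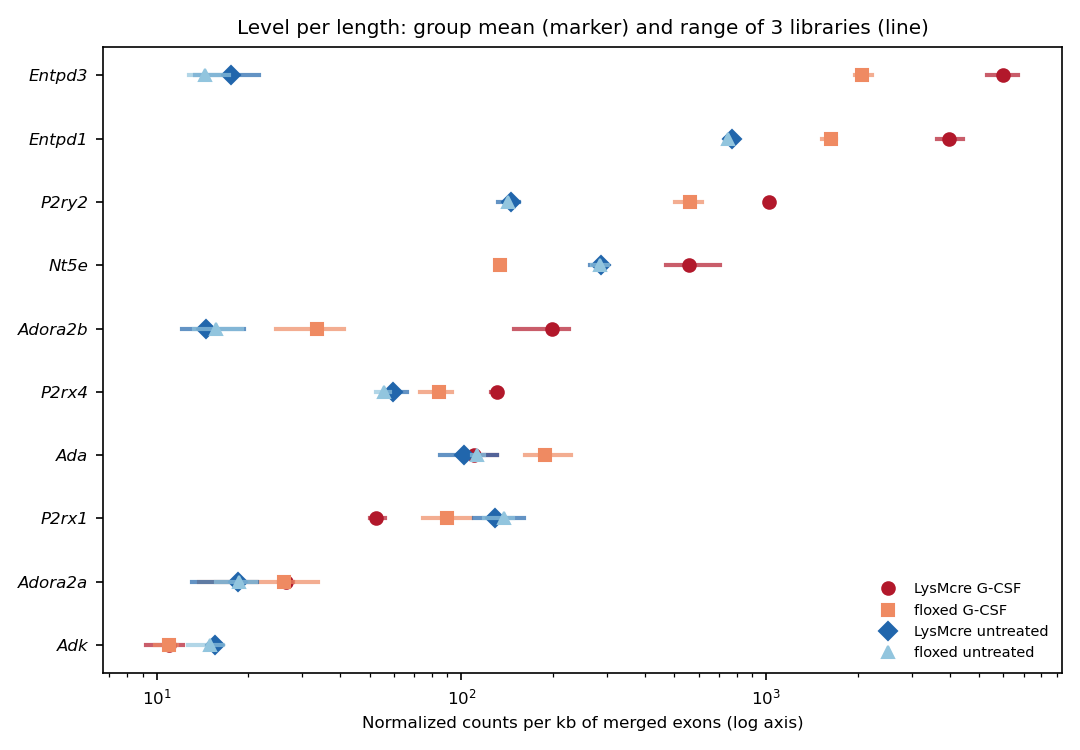
Level of the 10 genes per length, in normalized counts per kb of merged exons (log axis), as the group mean (marker) with the range of 3 libraries (line). Genes run down the page in the order of LysMcre-labelled libraries with G-CSF, with Entpd3 at 5972 first and Adk at 11.0 last; untreated, Entpd3 lies at 17.6 in LysMcre-labelled and 14.4 in floxed libraries.

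Between the genotypes with G-CSF, 5 of the 9 members tested were higher in LysMcre-labelled than in floxed libraries (Entpd1, Entpd3, Adora2b, P2rx4 and P2ry2), 2 were lower (Ada and P2rx1) and 2 did not pass (Adora2a and Adk). The median log2 difference of the 9 was 0.64, against -0.01 over all genes tested. The members were chosen with earlier results of these data known. Their counts and medians, here and in the comparisons below, are therefore a description and not a test of the list. Of all 13915 genes, 36% passed in limma (17.1% higher, 18.9% lower). The values not given above were 1.29 for Entpd1, 0.64 for P2rx4, 0.86 for P2ry2 and -0.75 for P2rx1 (limma adjusted p = 3.10e-09, 6.29e-05, 3.79e-07 and 0.00115). Adora2a (0.12) and Adk (-0.00) had limma adjusted p of 0.780 and 0.988.

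For the response to G-CSF in LysMcre-labelled libraries, 5 of 9 rose, 2 fell and 2 did not pass (median 1.13, against -0.00 over all genes), beside 62.6% of all genes called (31.1% higher, 31.6% lower). In floxed libraries 6 rose, 2 fell and 1 did not pass (median 0.72, against 0.00), beside 48.8% of all genes called (24.1% higher, 24.6% lower). For the difference between the responses, 5 were higher, 1 was lower and 3 did not pass (median 0.54, against -0.01), beside 22.4% called (10.9% higher, 11.5% lower). Without G-CSF none of the 10 members passed in limma (adjusted p = 1 for each; also 0 at an unadjusted p under 0.05, and 0 in edgeR and DESeq2), beside 0.115% of all genes (0.0647% higher, 0.0503% lower). There the largest log2 difference was 0.27, for Entpd3 (SE 0.15). The comparisons share libraries, so their counts are not independent of each other. When libraries were scaled to equal totals, the median of all genes moved to -0.13 between genotypes with G-CSF, -0.26 and -0.09 for the responses in LysMcre-labelled and floxed libraries, and -0.18 for their difference. The share of calls that were higher then was 28.2%, 31.2%, 38.5% and 23%, against 47.5%, 49.6%, 49.5% and 48.6%. The direction of no call of a member turned under that scaling.

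**Figure D4:**
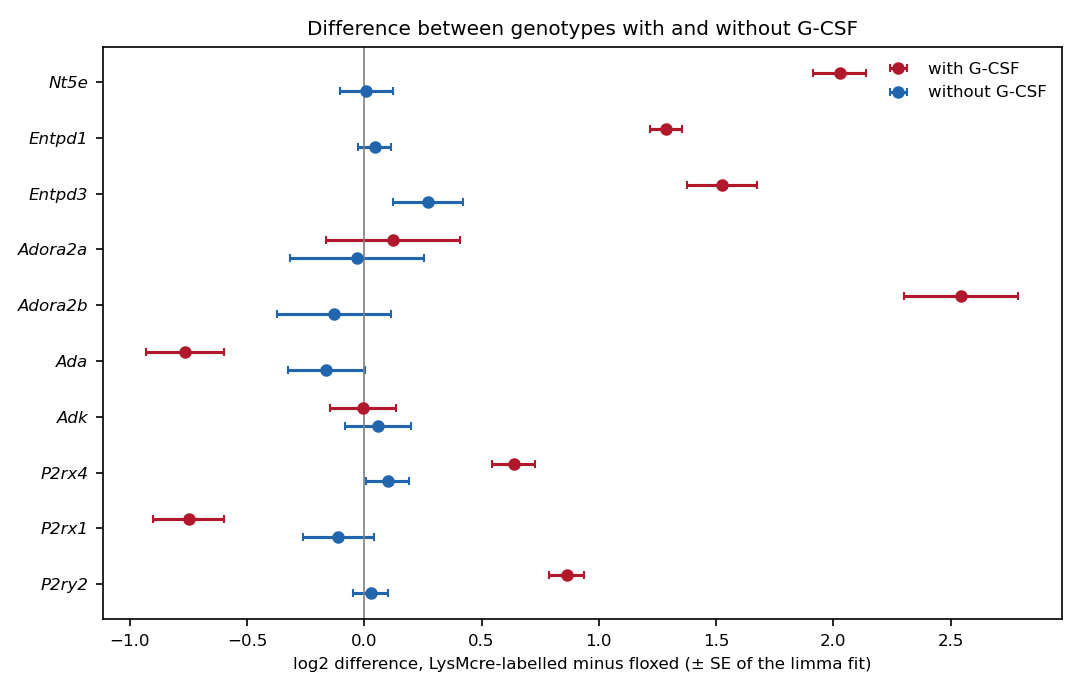
Log2 difference between LysMcre-labelled and floxed libraries, with the SE of the limma fit, with G-CSF (upper point of each gene) and without it (lower point). With G-CSF the genes spread between -0.76 for Ada and 2.55 for Adora2b, and without it between -0.16 for Ada and 0.27 for Entpd3.

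The 5 genes whose counts followed Nt5e most closely over the 12 libraries, among 9755 genes with a mean of at least 50, were Egln3 (Pearson r = 0.976), Pdpn (0.967), Igf1r (0.967), Sh2d5 (0.959) and Alcam (0.957). The 12 points share 4 groups, so these values describe group levels and carry no p. Egln3, a prolyl hydroxylase that acts on hypoxia-inducible factors, averaged 1208 ± 215 normalized counts in LysMcre-labelled and 383 ± 16.5 in floxed libraries with G-CSF, and 651 ± 54.8 and 645 ± 37.2 untreated (SD, n = 3 each). Pdpn, which encodes podoplanin, a surface glycoprotein, averaged 95.2 ± 6.44 and 25.7 ± 3.83 with G-CSF, and 48.6 ± 4.80 and 43.6 ± 2.80 untreated, in the same order of genotypes. Among the members, Pearson r with Nt5e was 0.537 for Adora2b, 0.416 for Entpd1 and 0.084 for Entpd3, and -0.695 for Ada.

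Of 62 other measured genes of purine handling, none passed in limma between the genotypes without G-CSF (3 at an unadjusted p under 0.05, and 0 in edgeR and DESeq2). With G-CSF 14 were higher in LysMcre-labelled libraries, 12 were lower and 36 did not pass (median 0.01), beside 36% of all genes called. In response to G-CSF, 25 rose and 17 fell in LysMcre-labelled libraries (median 0.14), beside 62.6% of all genes called, and 24 rose and 15 fell in floxed libraries (median 0.16), beside 48.8%. The response differed in 18, of which 10 were higher and 8 lower in LysMcre-labelled libraries (median -0.02), beside 22.4% of all genes. The counts describe the list and are read against these shares, from which nothing particular to it is drawn. Adora3, which encodes another adenosine receptor, averaged 3297 ± 232 and 1046 ± 75.4 normalized counts in LysMcre-labelled and floxed libraries with G-CSF, against 80.6 ± 10.4 and 86.1 ± 4.88 untreated (SD, n = 3 each); its exons overlap those of Tmigd3 on the same strand, so its value is uncertain. The ADP receptor gene P2ry13 showed the same order, at 12557 ± 500.1 and 5415 ± 294 with G-CSF and 552 ± 25.7 and 542 ± 40.3 untreated. So did Cd38, which encodes an enzyme that cleaves extracellular NAD, at 4551 ± 107 and 1959 ± 61.7 with G-CSF and 155 ± 38.7 and 157 ± 36.5 untreated.

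P2ry14, a receptor gene for UDP-sugars, averaged 169 ± 25.9 normalized counts in LysMcre-labelled libraries and 38.6 ± 5.70 in floxed libraries with G-CSF, and 39.7 ± 4.05 and 34.0 ± 8.97 untreated. Slc17a9, which encodes the vesicular nucleotide transporter that loads ATP into vesicles, was lower with G-CSF, at 214 ± 9.53 and 389 ± 46.0, against 1249.7 ± 187 and 1230.3 ± 47.4 untreated. Slc28a2, a concentrative nucleoside transporter gene, is the list's gene that passed in opposite directions: it fell by 0.38 with G-CSF in LysMcre-labelled libraries and rose by 0.55 in floxed libraries (log2; limma adjusted p = 0.000118 and 5.43e-06). Its counts were 1467, 1486 and 1523 with G-CSF against 1812, 1886 and 2159.6 untreated in LysMcre-labelled libraries, and 3109, 3111 and 2907 against 2052, 1981 and 2219 in floxed libraries. Of the 14 genes of adenosine receptor signalling, 5 rose and 5 fell with G-CSF in LysMcre-labelled libraries, beside 62.6% of all genes called. In floxed libraries 4 rose and 5 fell, beside 48.8%. Crem, a cyclic AMP-responsive transcription factor gene, had log2 responses of 1.67 and 0.47 in LysMcre-labelled and floxed libraries (limma adjusted p = 5.08e-08 and 0.0127). Pde4b, a cyclic AMP phosphodiesterase gene, differed by 0.79 between genotypes with G-CSF (limma adjusted p = 7.37e-08). The largest falls were those of Adcy9 (-3.31 and -2.93), Adcy3 (-1.54 and -0.80) and Pde3b (-1.36 and -1.22), in the same order of genotypes.

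**Figure D5:**
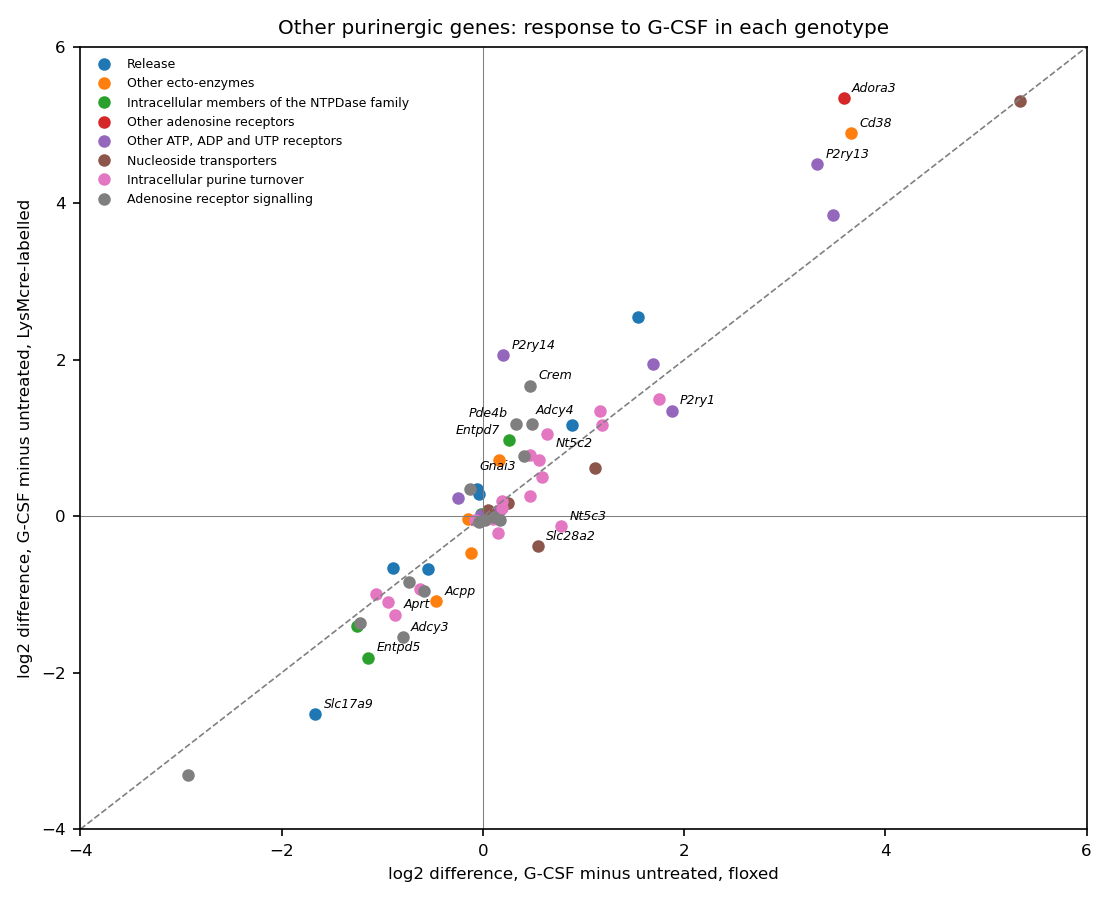
Log2 response to G-CSF in floxed (x axis) and LysMcre-labelled libraries (y axis) of the 62 other genes of purine handling, coloured by group, with the line of equal response dashed. Named genes are the 18 whose responses differed in limma; Adora3, Cd38, P2ry13 and P2ry14 lie above the line and Slc17a9 and Slc28a2 below it.

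In bulk samples, fewer cells of a type and less RNA per cell cannot be told apart, and several members are also known in other cells of the marrow. All 12 neutrophil markers were measured, and their summed level per library was 1735312 to 2108247 normalized counts. Single markers moved: with G-CSF 2 were higher and 6 lower in LysMcre-labelled than in floxed libraries by limma, and in each genotype 5 rose and 6 fell with G-CSF. Of all genes, 36% were called between genotypes with G-CSF. For the responses in LysMcre-labelled and floxed libraries, 62.6% and 48.8% of all genes were called. The secondary granule genes Camp, Ltf and Ngp were lower in LysMcre-labelled libraries with G-CSF by log2 differences of -1.08, -0.95 and -0.79, and Mmp8 by -0.56, while Ly6g (0.40) and the chemokine receptor gene Cxcr2 (0.41) were higher (limma adjusted p = 2.52e-05, 0.000103, 0.000566, 9.55e-06, 0.0106 and 0.000179). The granule gene Camp averaged 8940.2 ± 1683 normalized counts in LysMcre-labelled and 18893 ± 2876 in floxed libraries with G-CSF, and 51365 ± 7436 and 56997 ± 7832 untreated (SD, n = 3 each). Its LysMcre-labelled libraries with G-CSF lay wholly below the floxed ones with G-CSF, and both below the untreated libraries. The part of these shifts in the counts of the members was not tested.

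Other cell types were followed by their own markers. Nt5e is also known in lymphocytes and stroma. The 6 B cell markers summed to 2943 to 3755 in LysMcre-labelled and 3235 to 4194 in floxed libraries with G-CSF, and to 3517 to 4718 and 3258 to 5327 untreated. The 5 measured of 8 T and NK cell markers summed to 121 to 153, 138 to 144, 386 to 429 and 306 to 363 in the same order, and Foxp3, Klrb1c and Ncr1 have no row. By limma, 2 of the 6 B cell markers fell with G-CSF in LysMcre-labelled libraries and 0 in floxed libraries. Of the T and NK cell markers, 1 fell with G-CSF in each genotype. Also 1 was lower between genotypes with G-CSF, and 1 for the difference between the responses. The 5 measured of 6 stroma and endothelium markers summed to 1352 to 1530, 777 to 843, 826 to 935 and 724 to 858, thus highest in the group where Nt5e was highest. Most of that sum was Pecam1, which averaged 1326 ± 86.1 and 701 ± 4.93 with G-CSF and which neutrophils are also known to express. Pecam1 and Col1a1, a collagen gene of stroma, were higher in LysMcre-labelled than in floxed libraries with G-CSF, as Nt5e was (log2 0.92 and 1.12, limma adjusted p = 7.12e-08 and 0.00115), and their responses differed by 0.74 and 1.29 (limma adjusted p = 5.29e-05 and 0.00883). Col1a1 averaged 81.1 ± 20.8 and 36.6 ± 7.4 normalized counts with G-CSF in LysMcre-labelled and floxed libraries, against 137 ± 28.8 and 155 ± 36.0 untreated (SD, n = 3 each), and thus fell in both genotypes. Cdh5, Kdr and Cxcl12 averaged 14.6 to 39.2 normalized counts in every group; of these Kdr rose with G-CSF in floxed libraries (log2 1.37, limma adjusted p = 0.0203), and Lepr has no row. The 5 platelet markers, of interest because P2rx1 is known in platelets, summed to 681 to 908, 538 to 957, 646 to 812 and 461 to 758, which overlap in all groups. By limma, 1 of the 5 fell with G-CSF in each genotype, as P2rx1 did, and 4 did not pass. Of all genes, 62.6% were called for the response in LysMcre-labelled and 48.8% in floxed libraries. The 7 monocyte and macrophage markers summed to 12389 to 14997, 15115 to 18110, 19345 to 21379 and 20200 to 20702. The 6 eosinophil, basophil and mast cell markers summed to 2822 to 2933, 2701 to 3451, 1902 to 2772 and 1433 to 2146, higher with G-CSF in both genotypes with no overlap, as for the members that rose. Siglecf was 3.06-fold higher with G-CSF in LysMcre-labelled and 3.42-fold higher in floxed libraries (limma adjusted p = 2.03e-10 and 1.73e-10), Prg2 rose in floxed libraries (log2 0.69, limma adjusted p = 0.00716), where its response was higher than in LysMcre-labelled libraries (difference -0.83, limma adjusted p = 0.0383), and the other 4 did not pass. None of the 6 passed between genotypes with G-CSF. The 2 measured of 4 erythroid markers summed to 116 to 134, 147 to 222, 131 to 971 and 153 to 619, and the 3 measured of 5 dendritic cell markers to 481 to 487, 468 to 499, 528 to 603 and 436 to 508. The part of such cells in the counts of the members was not tested.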

How the data were processed

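RNA-seq of 12 libraries was deposited as a table of normalized counts, a signal unit: the authors divided gene counts by a size factor per library, read from the values, of which 100% are whole reads at a tolerance of 0.01 read after rescaling. Per the submitters' processing notes, reads were mapped to mm10. Which aligner, counter, gene models and strandedness were used is not given in the sources used here, and overlapping genes are uncertain. Of 13935 rows, each with at least 121 reads in all, 17 names had turned into dates, 2 of which coincide. The table held 2 columns without sample or values. For LysMcre-labelled untreated replicate 2, whose column name has the number 3, the number of the title was used. 3 reads equal 2.57 to 3.54 normalized counts. Replicates differed by more than sampling noise, so all were counted.

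After leaving out 20 rows with a mean under 10, log2(value + 1) was fitted over the 4 groups with limma 3.58.1 (R 4.3.3) with a trended prior and 8 residual degrees of freedom. Two-sided p-values were adjusted by Benjamini-Hochberg over 13915 genes at a threshold of 0.05. The design assumed normalized counts; since whole reads could be recovered, edgeR 4.0.16 and DESeq2 1.42.0 were run on them as alternatives, and edgeR called 13, 5097, 8734, 6897 and 3217 genes between genotypes without G-CSF, between genotypes with it, for the response in LysMcre-labelled and in floxed libraries, and for the difference of these, where limma called 16, 5013, 8717, 6784 and 3112. Other alternatives were pseudocounts of 0.5 and 5, other filters, quantile normalization, equal totals, a replicate block and leaving out each library. Scripts were tested on simulated data.

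The members and lists were chosen with earlier results of these data known. Named were all 10 members, Socs3 and Lyz2, and the 5 genes most correlated with Nt5e. For the pathway list, up to 3 genes past 0.05 in each direction were picked per group and comparison by size of change. Not all of the picked genes are described. Those left out include Slc28a3 (log2 responses of 5.31 in LysMcre-labelled and 5.33 in floxed libraries) and P2ry12 (3.85 and 3.48). Positions and lengths come from GENCODE M21 on mm10, and promoter windows from RefSeq on GRCm38.p6. One marker gene's result is not reported here.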

Additional observations from a re-analysis of the deposited data

Results flagged for a closer look

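The results below stand out because the G-CSF response of a gene differed between the genotypes. The values are the log2 response in LysMcre-labelled libraries minus that in floxed libraries, so a positive value means a higher response with the LysMcre label. For Nt5e the value was 2.02. All 3 LysMcre-labelled libraries with G-CSF lay above their untreated libraries and all 3 floxed ones below theirs, and this difference was not tested because the gene was chosen for it.

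By limma's test of the difference itself, adjusted over all genes, the members Entpd1 (1.24), Entpd3 (1.25), Adora2b (2.67), P2rx4 (0.54) and P2ry2 (0.84) had a higher response in LysMcre-labelled libraries, and P2rx1 (-0.64) fell further there. P2rx1 lost its call in 9 of 21 alternatives and P2rx4 with equal totals. Among the other genes of purine handling, the difference was positive for the receptor genes Adora3 (1.76), P2ry14 (1.85) and P2ry13 (1.19), for the enzyme genes Cd38 (1.24), Entpd7 (0.71) and Nt5c2 (0.40), and for the signalling genes Crem (1.20), Pde4b (0.86) and Adcy4 (0.69). It was negative for Slc17a9 (-0.86), Acpp (-0.62), Entpd5 (-0.67), P2ry1 (-0.53), Slc28a2 (-0.93), Nt5c3 (-0.91), Aprt (-0.39) and Adcy3 (-0.74). P2ry1 lost its call without LysMcre-labelled G-CSF replicate 2, floxed G-CSF replicate 1, LysMcre-labelled untreated replicate 1 or floxed untreated replicate 2 or 3 (adjusted p 0.0512 to 0.0675). Aprt lost its call without LysMcre-labelled G-CSF replicate 2, floxed G-CSF replicate 1, LysMcre-labelled untreated replicate 3 or floxed untreated replicate 2 or 3 (adjusted p 0.058 to 0.0711). Exons of Adora3 overlap Tmigd3 on the same strand, and exons of Entpd7, P2ry1, Adcy3, Crem and Nt5c2 overlap genes on the opposite strand, so their counts are uncertain.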

How the results depend on the processing

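The members called numbered 7 between genotypes with G-CSF, 7 and 8 for G-CSF in LysMcre-labelled and floxed libraries, 6 for the difference between the responses and 0 without G-CSF. Leaving out each library gave 7 in every case, 7 to 8, 7 to 8, 5 to 7 and 0 in every case. These counts are out of 9 members, or 10 without G-CSF. In the same order, 36%, 62.6%, 48.8%, 22.4% and 0.115% of all genes were called. In the comparisons with G-CSF, all calls of Entpd1, Entpd3, Adora2b and P2ry2 kept their direction and side of the threshold in the 22 alternatives (21 for the difference between the responses). Over the whole table, genes called between genotypes without G-CSF numbered 16, against 28 in DESeq2 and 9 to 21 when each library was left out; it was 10 without LysMcre-labelled untreated replicate 1 and 9 without floxed untreated replicate 1. No called value changed sign. Of the member values that were not called, with equal totals Adora2a was at 0.0169 between genotypes without G-CSF and at -0.0108 for the difference between the responses and Ada at -0.14 for G-CSF in LysMcre-labelled libraries. Nt5e, with no test, kept its sign in both responses: with equal totals it was at 0.67 in LysMcre-labelled and -1.18 in floxed libraries, against 0.93 and -1.09 with the deposited scaling. Without LysMcre-labelled G-CSF replicate 3 the response in LysMcre-labelled libraries was 0.75. Adk between genotypes with G-CSF was 0.0046 with quantile normalization and 0.0168 in edgeR. When each library was left out, the log2 differences between genotypes without G-CSF ran from -0.0344 to 0.0667 for Nt5e, -0.15 to 0.20 for Adora2a, -0.347 to 0.0144 for Adora2b, -0.0590 to 0.131 for Adk and -0.0202 to 0.0945 for P2ry2. With G-CSF they ran from -0.28 to 0.36 for Adora2a and -0.0843 to 0.112 for Adk. The response of Ada in LysMcre-labelled libraries ran from -0.0121 to 0.310, and the difference between the responses from -0.25 to 0.39 for Adora2a and -0.143 to 0.0550 for Adk. The cause was not tested. Adora2a for G-CSF in LysMcre-labelled libraries passed when only the 2 groups were fitted (adjusted p = 0.0361). Dpp4, named among the ecto-enzymes, lost its call in 2 alternatives and Adcy7 in 12.

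No label says that replicate numbers pair the libraries. Of 18 correlations of same-numbered deviations between groups, 4 were above 0.1 (range -0.178 to 0.321). Between G-CSF and untreated libraries of the same genotype they were 0.321, 0.199 and 0.061 in floxed libraries. In LysMcre-labelled libraries they were 0.214, -0.0317 and 0.0304. Libraries with different numbers were not compared, so these values cannot decide if the numbers pair libraries. With the replicate number as a block, the members called were 0 between genotypes without and 7 with G-CSF, 7 and 8 for the responses in LysMcre-labelled and floxed libraries, and 6 for their difference, and genes called over the table were 16, 4892, 8692, 6673 and 2967. Low read numbers limit Adora2a and Adk in every group, at 39 to 110 and 67 to 149 reads, Adora2b outside the LysMcre-labelled libraries with G-CSF, at 23 to 81, and Entpd3 untreated, at 45 to 95.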
